A study of Mus musculus with 12 samples.

Results

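Rb null and wildtype mouse embryonic fibroblasts (MEFs) were compared after treatment of both with cisplatin. The arrays were chosen by their labels, as the 3 arrays of cisplatin-treated Rb-/- MEFs and the 3 arrays of cisplatin-treated wildtype MEFs, and are 6 of the 12 arrays of the series. The other 6 arrays hold untreated cells of both genotypes and were used here to ask where a difference also existed without the drug. MEFs are primary connective tissue cells grown from whole embryos. The embryos were 13.5 days old (E13.5), and the cells were used at passage 2. Treated cells of both genotypes received 16 µM cisplatin for 24 h before RNA was extracted with Trizol, and 6 µg of RNA was labelled with biotin for Affymetrix expression arrays. The Rb allele, the mouse strain and the number of embryos are not given in the sources used here. The design text describes 1 RNA sample per group that was put on 3 arrays. If so, p-values here reflect how reproducible a hybridization was and carry no information on the spread between cultures. The comparison asked which transcripts differed between genotypes in cells treated with cisplatin. No measure of DNA damage is given in the sources used here.

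The protein encoded by Rb1 sits on E2F transcription factors and keeps genes of S phase entry silent until cyclin-dependent kinases phosphorylate it. Its relatives p107 (Rbl1) and p130 (Rbl2) do the same with other E2F proteins, and with the MuvB complex they hold back genes of mitosis through the DREAM complex. Cisplatin forms crosslinks between bases, mostly within a strand and partly between strands, which stall replication forks and activate checkpoint kinases and p53. Cells without Rb are known to enter S phase under conditions in which wildtype cells arrest.

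Values are linear signals per probe set. Log2 differences are Rb null minus wildtype, taken after 10.4 was added to each signal, and are given with the standard error of limma (n = 3 arrays per group). A gene is called higher or lower where the Benjamini-Hochberg adjusted p was under 0.05 over all 13575 probe sets tested and the difference was at least 1.5-fold, and rose and fell are used for such genes only. Each of the 7945 genes tested is represented by 1 probe set, and signals are listed in the order of arrays a, b and c.

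Arrays of the same group correlated at r = 0.984 to 0.989 over tested probe sets (6 pairs), and arrays of different genotype at 0.931 to 0.933 (9 pairs). The ratio of 3' to 5' signal of the Gapdh control probe sets was 0.798 to 0.881 on the Rb null and 0.782 to 0.866 on the wildtype arrays, so it did not separate the groups. The control probe set at the 5' end of 18S ribosomal RNA gave 136 to 187 on Rb null arrays and 46.8 to 58.0 on wildtype arrays, and the part of this in the results was not tested. The summed signal of 5 sex-linked markers was 3337 to 3866 in treated Rb null, 2306 to 2643 in treated wildtype and 3026 to 3636 in untreated Rb null cells, but 966 to 1011 in untreated wildtype cells. The sum joins Xist with Y-linked genes that went the other way. The Y-linked Eif2s3y averaged 478.1 in untreated wildtype, 1.267 in treated wildtype, 6.633 in treated Rb null and 1.433 in untreated Rb null cells. Uty averaged 199.3 in untreated and 27.4 in treated wildtype cells, and Kdm5d and Usp9y differed less. Untreated wildtype RNA therefore stands apart, from treated wildtype RNA too. Wherever untreated cells were compared, the origin of the cells cannot be told apart from genotype or cisplatin.

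Rb1, the gene removed in the null cells, gave signals of 102, 74 and 92.4 on the Rb null arrays against 452, 344 and 352 on the wildtype arrays. The groups did not overlap, and the log2 difference was -1.97 ± 0.15 (adjusted p = 9.41e-08). It was similar in size without cisplatin, at -2.17 ± 0.15. Which exons this probe set covers relative to the deleted part is not given in the sources used here, and some signal was left on every Rb null array. Its direct neighbours among the tested genes of chromosome 14, Itm2b and Rcbtb2, were at -0.079 and -0.16 and were not called.

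Treated Rb null cells differed from treated wildtype cells in 1827 of the 7945 genes, of which 768 were higher (9.67%) and 1059 lower (13.3%). Without cisplatin 8.07% were higher and 5.08% lower. The counts of every list below are to be read against these shares. The 3 signals of each genotype did not overlap for 1805 of these genes. Calling genes by their difference and spread favours such a separation, and the share without overlap over all 7945 genes is not given here. The median log2 difference over all genes was -0.051, with 5% of genes below -0.94 and 5% above 0.82. Differences of at least 2-fold were found for 235 genes called higher and 339 called lower, of at least 4-fold for 19 and 25, and of at least 8-fold for 4 and 6. Of the called probe sets 41.6% were higher with the scaling of the deposited values, 47.7% after quantile normalization and 51.5% after centring each array on its median, so which direction held more calls depended on the scaling. The share of probe sets called higher was lowest in the strongest of 5 bins of mean signal, at 5.64% against 9.1% to 11.1% in the others, and for probe sets called lower it was 7.77% against 12.4% to 16.2%.

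**Figure D1:**
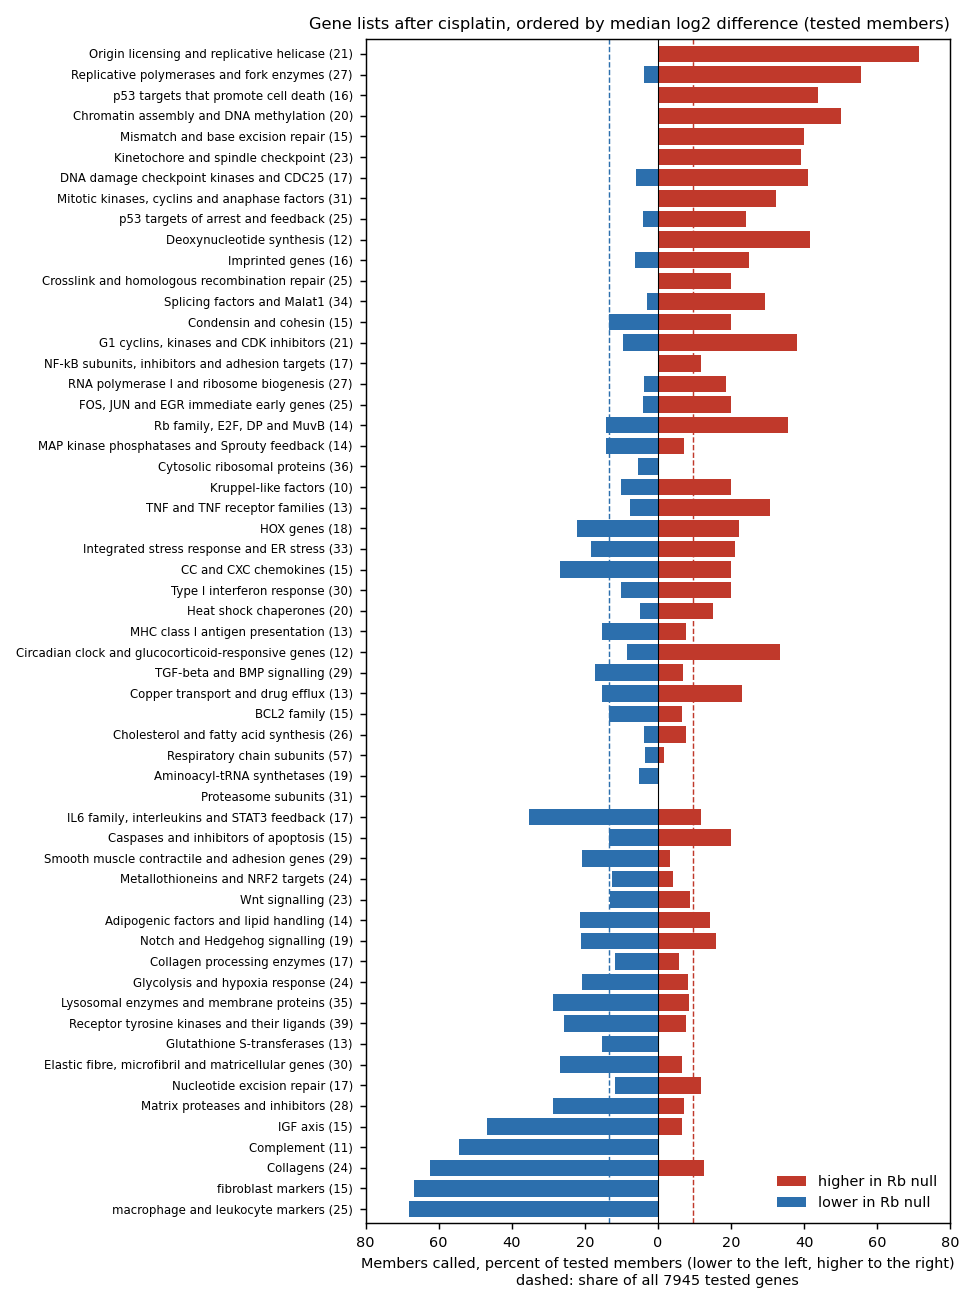
Share of the tested members of each gene list that was called higher (red, to the right) or lower (blue, to the left) in Rb null than in wildtype cells after cisplatin, with the number of tested members in brackets and the share over all 7945 tested genes as dashed lines (9.67% higher, 13.3% lower). Lists with at least 10 tested members are shown, ordered by their median log2 difference; of these, lists of DNA replication lie at the top with up to 71.4% of members higher, and collagens, fibroblast markers and macrophage markers at the bottom with 62.5% to 68.0% of members lower.

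The 12 largest rises included the interferon-inducible genes Ifi202b, Gbp2b and Gbp3 and genes of other roles. Ifi202b, a member of the interferon-inducible p200 family, gave 2718, 2745 and 3006 on the Rb null arrays and 110.2, 126 and 128 on the wildtype arrays, a 21.5-fold difference. Fxyd6, a small regulator of the sodium-potassium pump, gave 195, 236 and 270.5 on the Rb null arrays and 7.3, 16.4 and 22.4 on the wildtype arrays. The low wildtype signals of Fxyd6 lie near the 10.4 added to every value, so its log2 difference of 3.28 ± 0.18 understates the ratio of the signals. Tex15, best known for its role in meiotic recombination and transposon silencing in male germ cells, gave 914, 879 and 922 on the Rb null arrays and 120.3, 112 and 88.9 on the wildtype arrays, with a log2 difference of 2.97 ± 0.12 (adjusted p = 2.94e-10). Tmem87a, a membrane protein of the Golgi, gave 727, 635 and 715 on the Rb null arrays and 116, 59.4 and 71.7 on the wildtype arrays.

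Mbd4, a glycosylase that removes thymine and uracil from mismatches at methylated CpG sites, stood out among DNA repair genes. Its signals were 1074, 976 and 1056 on the Rb null arrays and 138, 177 and 157 on the wildtype arrays, a log2 difference of 2.65 ± 0.13 and a 6.26-fold difference on that scale. Sytl1, a Rab27 effector of vesicle transport, gave 1395, 1338 and 1169 on the Rb null arrays and 151, 219 and 248 on the wildtype arrays. Ptprv, a receptor-like phosphatase that p53 is known to induce in mouse cells, gave 975, 957 and 870.2 on the Rb null arrays and 192, 204 and 141 on the wildtype arrays, with a log2 difference of 2.33 ± 0.14. Igf2, the imprinted fetal growth factor, gave signals of 5220.3, 5753 and 5417 in Rb null cells against 895, 776 and 732 in wildtype cells. Without cisplatin Igf2 was at 5422 ± 220 (SD, n = 3) in Rb null and 6853 ± 381 in wildtype cells, so the treated wildtype arrays alone were low, and the difference between the genotype effects was 3.09 ± 0.11 (adjusted p = 1.6e-10).

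The largest falls included genes that were low in untreated cells of both genotypes. Rpgrip1, a ciliary protein known from photoreceptors, gave 2726, 2858 and 2922 on the wildtype arrays and 70.5, 129.5 and 110.4 on the Rb null arrays, and 50.9 ± 6.79 (SD, n = 3) in untreated wildtype cells. Sod3, the extracellular superoxide dismutase, gave 998, 1034 and 997 on the wildtype arrays and 67.9, 49.5 and 68.4 on the Rb null arrays, and 64.9 ± 20.1 in untreated wildtype cells. Lum, which encodes the collagen-binding proteoglycan lumican, gave 954, 1007 and 919.9 on the wildtype arrays and 88, 104 and 87.8 on the Rb null arrays, and 102 ± 12.2 in untreated wildtype cells. These 3 genes were thus high in treated wildtype cells alone.

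Tmem45a, a transmembrane protein known from keratinocytes, showed another pattern. It was present in untreated cells, at 426 ± 35.4 in Rb null and 375 ± 61 in wildtype. Treated wildtype cells gave 518, 515 and 624, but the treated Rb null arrays 11.9, 16.5 and 10.2. Pdpn, which encodes podoplanin, a surface glycoprotein of stromal and lymphatic cells, gave 2084, 3315 and 3257 on the wildtype arrays and 230.4, 296 and 330.5 on the Rb null arrays. Gzmd, a granzyme, gave 333, 284 and 232 on the wildtype arrays and 27, 30.7 and 35.8 on the Rb null arrays, and its second probe set was called in the same direction. Ano10, of the anoctamin family of membrane proteins, gave 190.5, 188 and 178 on the wildtype arrays and 32.5, 11.2 and 38.8 on the Rb null arrays. All 24 genes of the largest rises and falls also passed the test of the difference between the genotype effects with and without cisplatin, in the direction of their change after cisplatin. That test contains the difference by which these genes were ranked, so their choice favours this outcome and it is no separate support. Over all genes that test called 1885 (23.7%).

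**Figure D2:**
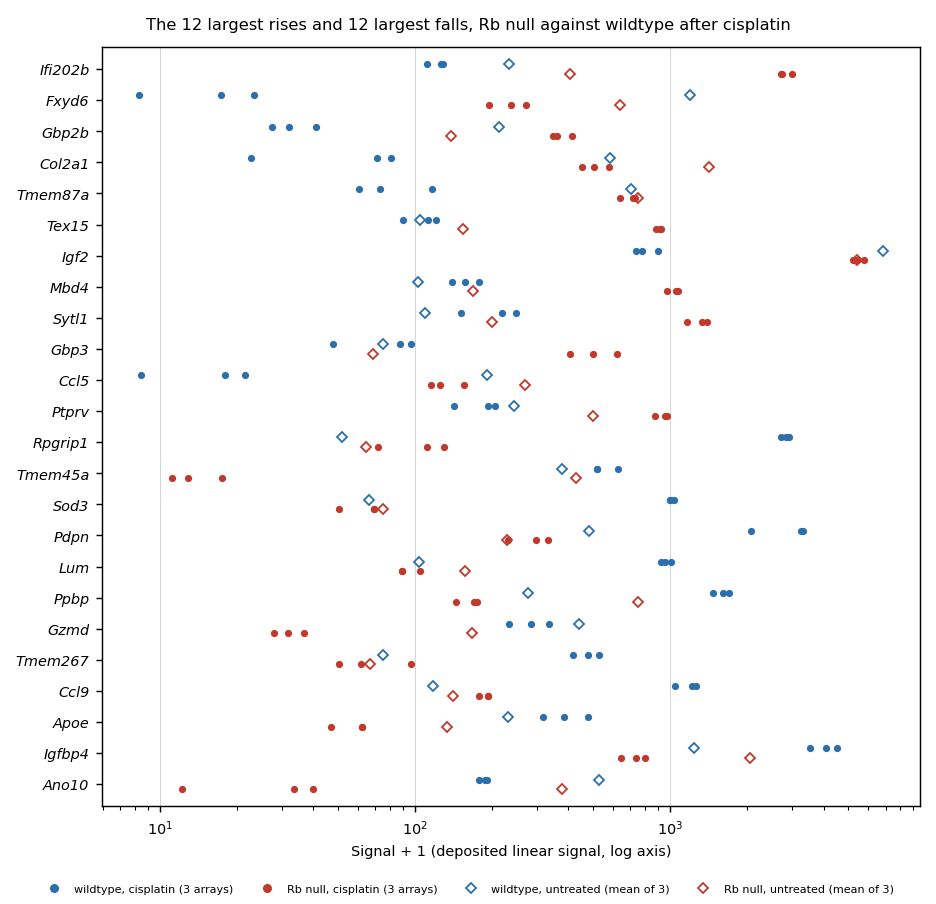
Signal (plus 1, log axis) of the 12 most increased and the 12 most decreased genes, with 1 dot per treated array (3 per genotype, wildtype blue and Rb null red) and open diamonds for the means of the 3 untreated arrays. The genes were chosen among those without overlap, so the dots of the genotypes are separated by that choice; for Rpgrip1, Sod3 and Lum both diamonds lie near the red dots.

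Among the genes of the Rb pathway itself, 5 of 14 tested members were higher and 2 lower, Rb1 included. Rbl1, which encodes p107 and is itself an E2F target, rose with signals of 452, 576 and 552 on the Rb null arrays and 289, 307 and 354 on the wildtype arrays. Rbl2, which encodes p130, fell, with 184, 159 and 186 on the wildtype arrays and 86.4, 74.2 and 84.6 on the Rb null arrays and a log2 difference of -1.02 ± 0.13. The other members of the family therefore moved in opposite directions. Without cisplatin Rbl2 was at 0.20 ± 0.13 and not called, and the difference between the genotype effects passed the test (-1.22 ± 0.19, adjusted p = 0.000186).

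E2f8, an atypical E2F that represses E2F targets late in S phase, rose by 1.06 ± 0.12. E2f1, the activator most tied to Rb, rose by 0.85 ± 0.15 with signals of 887, 1446 and 1325 on the Rb null arrays and 618, 771 and 599.8 on the wildtype arrays, but its other probe set had the opposite sign. Lin9, the scaffold of the MuvB complex, rose by 1.07 ± 0.16. E2f6, a repressor that does not bind Rb, rose by 0.67 ± 0.13, a call lost without Rb null array b. The activator E2f3 (-0.086), the repressor E2f4 (-0.10), and the mitotic regulators Foxm1 (0.22) and Mybl2 (0.087) were not called.

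Of 21 cyclins, kinases and inhibitors of the G1 phase, 8 were higher and 2 lower. The cyclin E genes, whose products drive S phase entry with Cdk2, both rose. Ccne2 gave 1694, 1656 and 1546 on the Rb null arrays and 528, 422 and 352 on the wildtype arrays, and Ccne1 rose by 0.85 ± 0.084. Their partner Cdk2 rose by 1.07 ± 0.1, and Ccna2, the S phase cyclin, by 0.65 ± 0.065. The 3 D-type cyclins lie upstream of Rb and were not called, at -0.11 for Ccnd1, -0.021 for Ccnd2 and -0.11 for Ccnd3.

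The inhibitors of these kinases differed among themselves. Cdkn1b, which encodes p27, fell with signals of 303, 306 and 326 on the wildtype arrays and 153, 133 and 166 on the Rb null arrays. It had been higher in Rb null cells without cisplatin (0.77 ± 0.11), and the difference between the effects was -1.78 ± 0.15 (adjusted p = 6.12e-07). Cdkn1c, which encodes p57, rose by 0.83 ± 0.15. Cdkn1a, which encodes p21 and is the best known target of p53 in arrest, gave 9886, 10399 and 10204 on the Rb null arrays and 8304, 9202 and 8438 on the wildtype arrays, and its log2 difference of 0.23 ± 0.056 was below the 1.5-fold minimum. Fbxw7, a ubiquitin ligase subunit that marks cyclin E for degradation, rose by 1.15 ± 0.097, and Cdk7, the kinase that activates Cdk2 and Cdk1, fell by 0.97 ± 0.094 on the log2 scale.

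Genes that load and fire replication origins were, of all lists, the one with the largest share of members called higher. Of 21 tested members 15 were higher (71.4%, against 9.67% of all genes), none was lower, and the median log2 difference was 0.79 against -0.051 over all genes. The same 15 genes were also called higher without cisplatin, where 8.07% of all genes were higher and 5.08% lower. The licensing factors Cdc6 and Cdt1 place the MCM helicase on origins that the origin recognition complex has marked. Cdc6 gave 1309, 872 and 858 on the Rb null arrays and 305, 318 and 258 on the wildtype arrays, a log2 difference of 1.73 ± 0.39. Orc1, the subunit of the origin recognition complex that varies in the cell cycle, gave 597, 509 and 514 on the Rb null arrays and 161, 174 and 154 on the wildtype arrays. Orc2, Orc3, Orc4 and Orc5 were at 0.39, -0.071, 0.011 and -0.43 and were not called, whereas Orc6 rose by 0.79 ± 0.074. Cdt1 gave 4817, 5111 and 5146 on the Rb null arrays and 2063, 2091 and 1980.2 on the wildtype arrays, and its inhibitor geminin (Gmnn) rose with it, at 1115, 1209 and 1129 on the Rb null arrays and 467, 494 and 496 on the wildtype arrays.

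All 6 subunits of the MCM2-7 helicase rose, by log2 0.70 (Mcm2), 0.86 (Mcm3), 0.67 (Mcm4), 0.62 (Mcm5), 0.73 (Mcm6) and 0.80 (Mcm7). Mcm5 was the weakest of them, with 1333, 1654 and 1574 on the Rb null arrays and 1088, 929 and 943 on the wildtype arrays, and its call was lost without Rb null array b or wildtype array b. Cdc7, the kinase that fires licensed origins, rose by 1.23 ± 0.11, and its activator Dbf4 was at 0.58 ± 0.078, just under the fold minimum. For Orc1 the difference was larger with cisplatin than without (0.82), with a difference between the effects of 0.84 ± 0.27 (adjusted p = 0.024). For 7 other members, among them Mcm2, Mcm3, Mcm5 and Mcm6, it was smaller.

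Promoters of 6498 of the 7945 genes were found in the RefSeq table of promoters (build GRCm38.p6, 250 bases before to 50 bases after the start). They were searched on both strands for the E2F site letters TTTCCCGC, TTTGGCGC, TTTCGCGC and TTTGCCGC. A match stood in 5.08% of all promoters, in 8.36% of 634 genes called higher and in 3.17% of 852 called lower. In the replication and G1/S lists the share was 27.4% of 95 promoters and 32.7% of the 49 that were called higher. The 3 stretches shown are those of the genes with the largest rise among members of the cell cycle lists that hold a match, given in capitals. That they hold it therefore follows from the choice. They lie at chr11:98907983-98908050 (plus strand), chr4:108579397-108579453 (plus strand) and chr19:38930898-38930965 (plus strand), and the match begins 138, 27 and 62 bases before the start.
Cdc6: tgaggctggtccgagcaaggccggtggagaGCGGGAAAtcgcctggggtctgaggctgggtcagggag
Orc1: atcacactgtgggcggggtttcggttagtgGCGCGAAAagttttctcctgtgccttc
Hells: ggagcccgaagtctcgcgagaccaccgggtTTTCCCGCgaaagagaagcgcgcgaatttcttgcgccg
A match is a description of these letters and does not show that E2F bound there.

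Polymerases and proteins of the replication fork followed, with 15 of 27 members higher, 1 lower and a median of 0.63. Prim1, the catalytic subunit of primase, gave 3032, 3184 and 3246 on the Rb null arrays and 831, 963 and 1006 on the wildtype arrays. Prim2, its partner subunit, was the 1 gene that fell, with 229, 217 and 205 on the wildtype arrays and 89.6, 119 and 105 on the Rb null arrays, and its second probe set was called in the same direction. Without cisplatin Prim2 had been higher in Rb null cells (1.16 ± 0.12). Rpa2, a subunit of the protein that coats single-stranded DNA, gave 1821, 1793 and 1734 on the Rb null arrays and 576, 618 and 602 on the wildtype arrays. Pole, the catalytic subunit of the leading strand polymerase, rose by 1.33 ± 0.11, and the clamp loader subunits Rfc5 and Rfc3 by 1.20 ± 0.1 and 1.16 ± 0.1. Tipin, of the fork protection complex, gave 4084, 4179 and 3869 on the Rb null arrays and 1785, 1805 and 1705 on the wildtype arrays. Neither Pola1 (0.17), Pold1 (0.30) nor Lig1 (0.50) was called.

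Enzymes that supply deoxynucleotides were higher in 5 of 12 cases and lower in none (median 0.33). Thymidine kinase 1 (Tk1) gave 1048, 1017 and 1019 on the Rb null arrays and 503, 491 and 498 on the wildtype arrays. The small subunit of ribonucleotide reductase, Rrm2, rose by 0.85 ± 0.046, while the large subunit Rrm1 (0.28) and the p53-inducible small subunit Rrm2b (0.18) were not called. Dck, Dctpp1 and Dut, which phosphorylate deoxycytidine, clear modified dCTP and hydrolyse dUTP, rose by 0.98 ± 0.089, 0.94 ± 0.079 and 0.67 ± 0.083.

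Chromatin assembly and DNA methylation factors were higher in 10 of 20 cases and lower in none (median 0.53). Hmgb2 and Hmgb3, DNA-bending chromatin proteins, gave 2084, 1992 and 1756 on the Rb null arrays and 731, 595 and 941 on the wildtype arrays for Hmgb2 and rose by 1.16 ± 0.15 for Hmgb3. Hells, a remodeller needed for DNA methylation whose promoter holds an E2F match, gave 1083, 1175 and 1224 on the Rb null arrays and 511, 504 and 499 on the wildtype arrays. Chaf1b, of the complex that deposits histones behind the fork, rose by 0.99 ± 0.087, and Uhrf1, which guides the maintenance methyltransferase to new DNA, by 0.96 ± 0.097. The methyltransferase itself, Dnmt1, was at 0.62 ± 0.063 and called, and Ezh2, of the Polycomb complex, was at 0.27 ± 0.078 and not called.

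**Figure D3:**
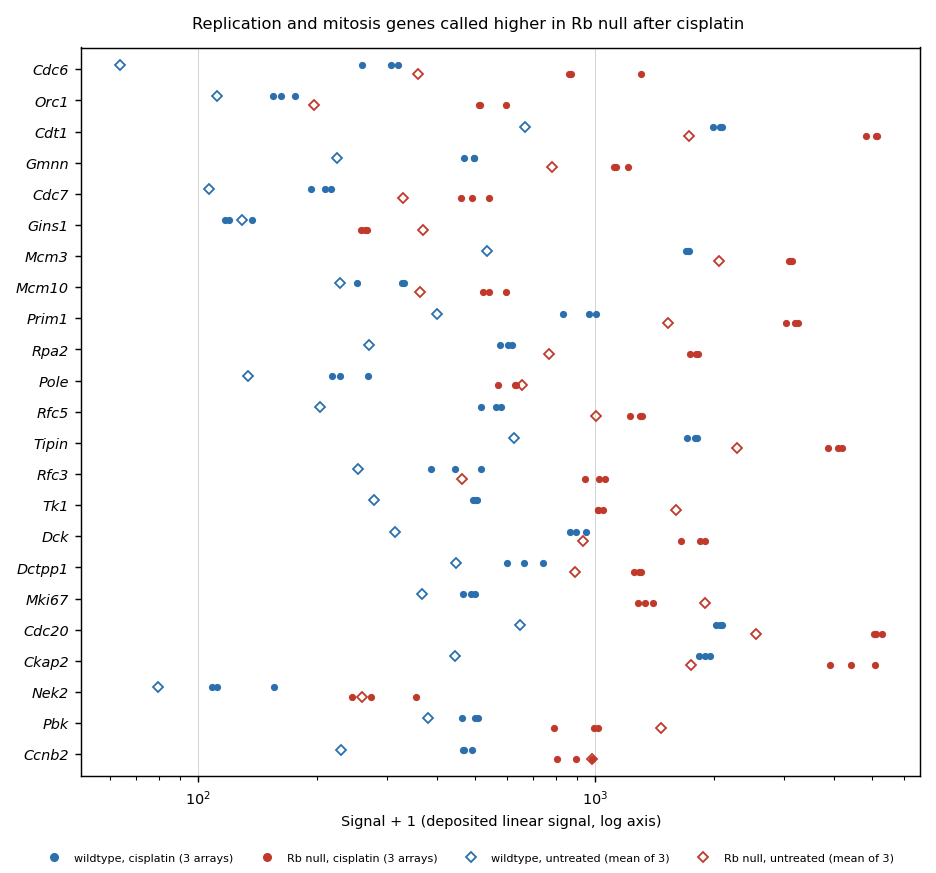
Signal (plus 1, log axis) of replication and mitosis genes called higher in Rb null cells after cisplatin, with 1 dot per treated array (wildtype blue, Rb null red) and open diamonds for the means of 3 untreated arrays. Red dots lie to the right of blue dots for every gene, and treated wildtype dots lie to the right of the untreated wildtype diamond for Cdt1, Mcm3, Prim1 and Cdc20.

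Of 31 mitotic kinases, cyclins and anaphase factors 10 were higher and none lower, with a median of 0.42. Mki67, the proliferation antigen Ki-67, gave 1402, 1282 and 1334 on the Rb null arrays and 486, 466 and 498 on the wildtype arrays. Cdc20, the activator of the anaphase-promoting complex, gave 5108, 5292 and 5054 on the Rb null arrays and 2070.1, 2093 and 2019.7 on the wildtype arrays. Nek2, a centrosomal kinase, rose by 1.16 ± 0.24, Ckap2, a spindle protein, by 1.23 ± 0.095, and Ccnb2, cyclin B2, by 0.90 ± 0.096. The central mitotic kinases were not called, at 0.24 for Cdk1, -0.028 for Plk1, 0.058 for Aurka and 0.33 for Aurkb.

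The same genes differed strongly without cisplatin. There 29 of the 31 were higher, against 8.07% of all genes, and the median was 1.94. For 28 of the 31 the genotype difference was smaller after cisplatin by the test of the difference between the effects. Of all genes 23.7% passed that test in either direction. Plk1 went from 2.34 ± 0.12 without to -0.028 ± 0.12 with cisplatin, a difference of -2.37 ± 0.17 (adjusted p = 1.26e-07). In Plk1 the treated arrays read 429, 505 and 480.1 in Rb null and 431, 498 and 514 in wildtype cells, and the untreated means were 1491 ± 85.6 and 288 ± 48.1. Aurka behaved alike, from 1.91 ± 0.091 to 0.058 ± 0.091.

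Kinetochore and spindle checkpoint genes were higher in 9 of 23 cases and lower in none (median 0.44, against 1.52 with 18 higher without cisplatin). Sgo1, which protects centromeric cohesin, gave 595, 644 and 569 on the Rb null arrays and 234, 241 and 206 on the wildtype arrays. Cenpq and Cenpk, of the constitutive centromere network, rose by 1.04 ± 0.12 and 0.97 ± 0.14, and Spc25, of the microtubule-binding NDC80 complex, by 0.95 ± 0.15. Bub1b (0.37) and Cenpf (-0.027) were not called. Of 7 mitotic kinesins Kifc1 (0.92 ± 0.11) and Kif20a (0.66 ± 0.099) rose, and all 7 had been higher without cisplatin.

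Of 15 condensin and cohesin genes 3 were higher and 2 lower. Smc4 and Smc2, the paired core of condensin, rose by 1.16 ± 0.061 and 0.82 ± 0.089, and Smc3, of the cohesin ring, by 0.78 ± 0.1. Esco1, an acetyltransferase that locks cohesin on DNA, fell, with 536, 539 and 545 on the wildtype arrays and 218, 207 and 221 on the Rb null arrays, and Stag1, a cohesin subunit, was at -0.80 ± 0.1 and called lower. In 65 promoters of the mitosis lists the letters TTTGAA of the cell cycle genes homology region stood in 56.9%, against 13.9% of all 6498 promoters. The 20 of them called higher held this match in 50.0% of cases.

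**Figure D4:**
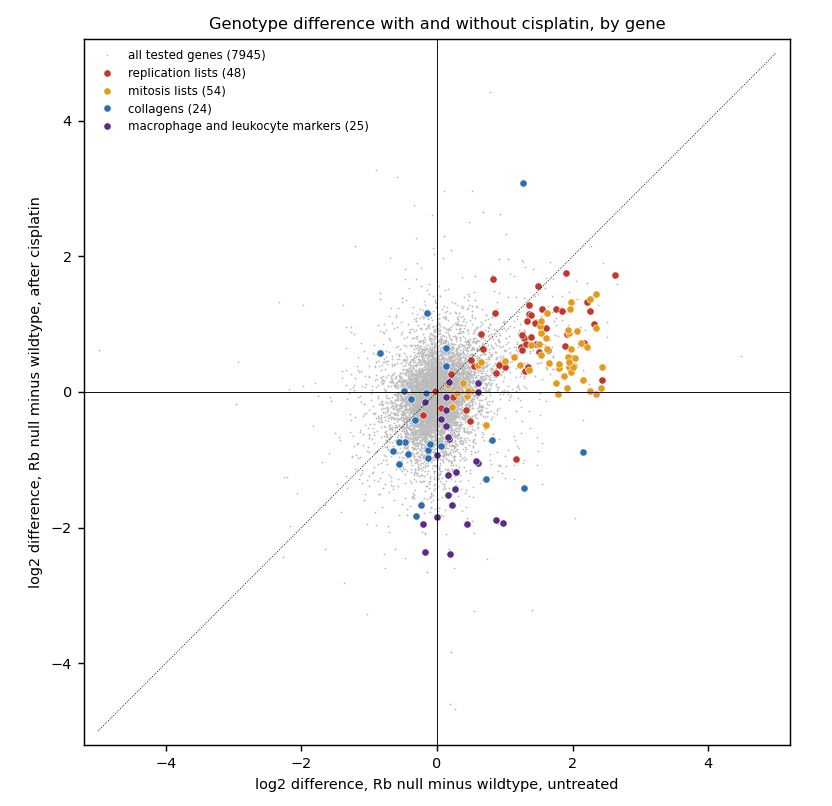
Log2 difference between Rb null and wildtype for each of the 7945 tested genes, without cisplatin (x axis) and after cisplatin (y axis), with replication genes (48) in red, mitosis genes (54) in orange, collagens (24) in blue and macrophage markers (25) in purple. The dotted diagonal marks equal differences; most mitosis genes lie right of it and above 0 on the x axis, and most macrophage markers lie below 0 on the y axis while on the x axis most lie near or above 0.

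Among 17 DNA damage checkpoint genes 7 were higher and 1 lower (median 0.43). Chek1, the kinase that stalls the cycle at blocked forks, gave 523, 482 and 491 on the Rb null arrays and 296, 230.4 and 241 on the wildtype arrays. Its target Cdc25a, a phosphatase that activates Cdk2, rose by 0.99 ± 0.12, Rad9a of the damage clamp by 0.71 ± 0.1 and the adaptor Topbp1 by 0.71 ± 0.11. Chek2 was at 0.62 ± 0.13 and called, a call lost without Rb null array a and with the larger pseudocount. Trp53bp1, which steers repair towards end joining, fell, with 970.3, 1079 and 848 on the wildtype arrays and 379, 505 and 551 on the Rb null arrays. The apical kinases Atm (-0.20) and Atr (0.56) were not called.

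Targets of p53 that act in arrest and feedback were higher in 6 of 25 cases and lower in 1 (median 0.37). Rprm, which encodes the G2 arrest protein reprimo, gave 2624, 2569 and 2507 on the Rb null arrays and 1141, 749 and 1010.4 on the wildtype arrays. Gadd45a, a stress sensor, rose by 1.01 ± 0.17 and Sesn1, an inhibitor of growth signalling, by 0.83 ± 0.1, and both differed from the untreated effect by the interaction test (adjusted p = 0.000366 and 0.00146). Sesn3, which is known more as a FOXO target, fell, with a log2 difference of -0.93 ± 0.17. The feedback regulators Mdm2 (0.40 ± 0.11), Ccng1 (0.37 ± 0.061) and Ppm1d (0.34 ± 0.097) were not called.

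The list of p53 targets that promote cell death had 7 of 16 members higher (43.8%, against 9.67% of all genes) and none lower (median 0.54). The list is broad, and some members that rose, such as Ackr3 and Pltp, have other main roles. The death receptor Fas gave 579, 640.3 and 775 on the Rb null arrays and 203, 214 and 271 on the wildtype arrays, and Perp, a membrane protein of p53-dependent apoptosis, gave 2343, 2100.4 and 2249.8 on the Rb null arrays and 802, 855 and 860.3 on the wildtype arrays. Ackr3, an atypical chemokine receptor, gave 1536, 1267 and 1328 on the Rb null arrays and 436, 297 and 356 on the wildtype arrays, the largest rise of the list. Pltp, a phospholipid transfer protein, rose by 1.00 ± 0.13, and Pidd1, the scaffold of the caspase-2 complex, by 0.66 ± 0.1. The BH3-only genes Bbc3 (Puma, 0.037) and Pmaip1 (Noxa, 0.39) were not called, and neither were Apaf1, Bid, Siva1 and Ei24. Of these genes Fas showed a larger difference with cisplatin than without, by 0.65 ± 0.22 (adjusted p = 0.0298), while Ackr3, Perp, Pltp and Pidd1 were also higher without the drug and did not pass that test.

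The BCL2 family had 1 of 15 members higher and 2 lower. Bnip3, a mitochondrial protein of hypoxic cells and mitophagy, fell, with 554, 595 and 625 on the wildtype arrays and 254, 241 and 200 on the Rb null arrays. Bcl2l1, which encodes the survival protein BCL-XL, was at -0.95 ± 0.1 and called lower, but neither of its other 2 probe sets was called lower. Bcl2 (-0.024) and Bak1 (-0.26) were not called. Among caspases and their inhibitors 3 of 15 were higher (20.0%, against 9.67% of all genes) and 2 lower (13.3%, as over all genes). Casp2, the caspase that Pidd1 activates, rose by 0.98 ± 0.071, Casp6 by 0.67 ± 0.1, and the inhibitor Birc2 by 0.80 ± 0.15. Diablo, which releases caspases from these inhibitors, was called lower, at -0.76 ± 0.12.

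Repair genes were counted by pathway, and no difference between pathways was tested. Mismatch and base excision repair had 6 of 15 members higher and none lower (median 0.53). Beside Mbd4, the uracil glycosylase Ung gave 375, 329.9 and 429 on the Rb null arrays and 142, 128 and 139 on the wildtype arrays, Nthl1, which removes oxidized pyrimidines, rose by 1.10 ± 0.13, and Msh6, which recognizes mispaired bases, by 1.05 ± 0.074. Crosslink and homologous recombination repair had 5 of 25 higher and none lower (median 0.28, against 0.95 with 14 higher without cisplatin). Usp1, which removes ubiquitin from the Fanconi anaemia pathway and from PCNA, rose by 1.17 ± 0.095, and Brca2, of homologous recombination, by 1.11 ± 0.1. Fanca (0.30), Fancc (0.012) and Fancl (-0.004) were not called.

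Nucleotide excision repair, which removes cisplatin adducts within a strand, had 2 of 17 members higher and 2 lower, shares of 11.8% each, near those over all genes. The subunits of the nuclease that cuts 5' of the lesion went apart. Ercc1 rose, with 3129.6, 2755 and 2992 on the Rb null arrays and 1584, 1444 and 1471 on the wildtype arrays, and its partner Ercc4 fell, with 243, 222 and 318 on the wildtype arrays and 155, 117 and 142 on the Rb null arrays. The damage sensors Xpc (-0.28) and Xpa (0.40) were not called.

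Genes of copper transport, drug efflux, metal binding and antioxidant defence changed singly. How much cisplatin reached DNA was not measured. Of 13 copper transporters and efflux pumps 3 were higher and 2 lower. The copper importer Slc31a1, through which cisplatin can enter, gave 496, 534 and 529 on the Rb null arrays and 611, 582 and 654 on the wildtype arrays, a log2 difference of -0.24 ± 0.085 that was not called. The efflux pump Abcb1b rose by 1.12 ± 0.17, the pump Abcc1 fell, with 1566, 1583 and 1554 on the wildtype arrays and 797, 661 and 634 on the Rb null arrays, and Abcg2 was called lower at -0.73 ± 0.11. Ccs, the copper chaperone of superoxide dismutase, rose by 0.75 ± 0.073. Metallothionein 2 (Mt2), a metal-binding protein, fell, with 3307, 3399 and 3868 on the wildtype arrays and 1731, 1122 and 1487 on the Rb null arrays, and Mt1 was at -0.37 ± 0.089 and not called. Gpx3, a secreted glutathione peroxidase, rose by 1.12 ± 0.088, whereas the classic NRF2 targets Nqo1 (-0.13) and Hmox1 (0.33) were not called. Among 13 glutathione S-transferases 2 were lower and none higher, namely Mgst1 (-0.85 ± 0.087) and Gstt3 (-0.96 ± 0.19).

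Stress response genes were divided. The list of integrated stress response and ER stress genes had 7 of 33 members higher (21.2%) and 6 lower (18.2%), with a median of 0.14. Ppp1r15a, the phosphatase subunit GADD34 that ends the translational block, gave 3486, 3759.7 and 3601 on the Rb null arrays and 1057, 1142 and 1197 on the wildtype arrays. Ddit3, which encodes CHOP, rose by 0.89 ± 0.13 and Herpud1, of ER-associated degradation, by 1.25 ± 0.18. Ddit3 had been lower in Rb null cells without cisplatin (-1.27 ± 0.13), and the difference between the effects was 2.16 ± 0.18. In contrast Phgdh, the first enzyme of serine synthesis, fell, with 4247, 4876 and 4829.6 on the wildtype arrays and 2173, 2088 and 1922 on the Rb null arrays, and so did Nupr1 (-0.96 ± 0.069) and Xbp1 (-0.94 ± 0.074). Atf4, the central factor of the response, was at 0.54 ± 0.067 and not called. The probe set of Phgdh carries a suffix that marks cross-hybridization, and its 3 other probe sets were called in the same direction.

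Heat shock chaperones had 3 of 20 members higher and 1 lower. Dnajb1, an HSP40 co-chaperone, gave 4899, 5687 and 5404 on the Rb null arrays and 2147, 2284 and 2300 on the wildtype arrays, and Hspa1a, an inducible HSP70, rose by 1.09 ± 0.13, while the near-identical Hspa1b was at -0.031. Immediate early genes were higher in 5 of 25 cases and lower in 1. Fos gave 2918, 2960.1 and 2963 on the Rb null arrays and 1578, 1587 and 1817 on the wildtype arrays, and Fosb and Id2 rose by 0.81 ± 0.12 and 0.76 ± 0.095. Egr1 (0.18) and Atf3 (0.45) were not called, and Egr2 was called lower, at -0.76 ± 0.14. Klf2, a shear- and quiescence-linked Kruppel-like factor, fell, with 516, 566 and 513 on the wildtype arrays and 135, 185 and 187 on the Rb null arrays, while Klf4 and Klf5 rose by 0.61 ± 0.13 and 0.76 ± 0.1.

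Of 7 tested guanylate-binding, GTPase and p200 interferon-inducible genes 4 were higher and none lower, and 8 further members on the array were too weak to be tested. Gbp3, a guanylate-binding protein of cell-autonomous immunity, gave 499.7, 404 and 617 on the Rb null arrays and 46.6, 86.3 and 95.8 on the wildtype arrays, and Gbp2 gave 535, 530.2 and 505 on the Rb null arrays and 92, 102 and 101 on the wildtype arrays. Igtp, an immunity-related GTPase, rose by 1.32 ± 0.17. Irgm1 (0.45) and Ifi47 (-0.40) were not called. Gbp3, Gbp2b and Gbp2 are direct neighbours among the tested genes of chromosome 3, and Gbp2b gave 359, 346 and 411 on the Rb null arrays and 31.1, 26.4 and 39.8 on the wildtype arrays. None of the 3 was higher in Rb null cells without cisplatin, where Gbp3 was at -0.079, Gbp2 at 0.10 and Gbp2b at -0.59. For each the difference between the effects passed the test (adjusted p = 0.000115, 1.76e-06 and 2.09e-08).

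The promoters of Gbp3 and Gbp2 both held the letters GAAANNGAA of the interferon-stimulated response element, searched on both strands. A match stood in 8.2% of all 6498 promoters, in 8.68% of 634 genes called higher and in 10.2% of 852 called lower. In the interferon lists it stood in 48.6% of 35 promoters and in 6 of the 9 of these that were called higher (66.7%). The stretches shown are those of the genes with the largest rise among members of the interferon lists that hold a match, given in capitals. That both hold it therefore follows from the choice. The promoter of their neighbour Gbp2b is not described here. In Gbp3 there are 2 overlapping matches. They lie at chr3:142559970-142560043 and chr3:142620575-142620643 (plus strand), with the first match 44 and 58 bases before the start.
Gbp3: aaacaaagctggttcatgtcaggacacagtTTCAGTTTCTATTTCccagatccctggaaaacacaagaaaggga
Gbp2: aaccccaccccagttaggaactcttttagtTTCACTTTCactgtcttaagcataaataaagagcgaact
Which factor is bound there was not measured.

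The wider type I interferon response had 6 of 30 members higher (20.0%) and 3 lower (10.0%), with a median of 0.11. Ifitm1, a membrane protein that blocks viral entry, gave 449.6, 523 and 430.2 on the Rb null arrays and 167, 182 and 228 on the wildtype arrays, and Ifi35 and the kinase PKR (Eif2ak2) rose by 1.05 ± 0.11 and 0.93 ± 0.1. The factors that carry the interferon signal were not called, at 0.11 for Stat2, 0.13 for Irf9 and 0.35 for Irf7. The kinase Jak1 fell, with 1565, 1605 and 1617 on the wildtype arrays and 875, 856 and 926 on the Rb null arrays. Of 13 tested MHC class I genes 1 was higher and 2 were lower. Tap1, the peptide transporter, rose, with 1322, 1329 and 1418 on the Rb null arrays and 565, 513 and 530 on the wildtype arrays, and B2m, the light chain, was at 0.20 and not called. H2-K1 (-0.67 ± 0.14) and H2-M3 (-0.63 ± 0.13) were called lower, both calls lost without Rb null array c and that of H2-M3 also after quantile normalization, median centring and with the larger pseudocount. Of the 3 other probe sets of H2-K1, 2 had the opposite sign.

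Chemokines changed in both directions, with 3 of 15 tested genes higher and 4 lower. Cxcl10 and Cxcl5 were too weak over the 12 arrays to be tested. Their means were 330 and 9.4 in treated Rb null cells and 80.6 and 213 in treated wildtype cells. Cxcl1, a neutrophil attractant, gave 1106, 993 and 1107 on the Rb null arrays and 246, 229 and 234 on the wildtype arrays. Ccl5, a T cell attractant, gave 154, 125 and 114 on the Rb null arrays and 20.6, 7.4 and 17 on the wildtype arrays, and its wildtype signals lie near the value added before log2 was taken. Cxcl12, the stromal ligand of CXCR4, rose by 0.95 ± 0.091. Ccl9, a ligand of the receptor CCR1, fell, with 1046, 1224 and 1269 on the wildtype arrays and 192, 192 and 178 on the Rb null arrays. The platelet chemokines Ppbp and Pf4, which are neighbours in the genome, both fell, with 1477, 1708 and 1612 on the wildtype arrays and 174, 169 and 144 on the Rb null arrays for Ppbp and a log2 difference of -1.29 ± 0.087 for Pf4. Both had been higher in untreated Rb null cells (1.40 and 1.14), so their genotype difference changed sign.

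Cytokines of the IL6 family and their signalling were lower in 6 of 17 cases (35.3%, against 13.3% of all genes). Higher were 2 (11.8%, near the 9.67% of all genes). The shared receptor subunit gp130 (Il6st) gave 911, 887 and 826 on the wildtype arrays and 487, 500.2 and 496 on the Rb null arrays, and the factor it activates, Stat3, gave 1125, 1214 and 1025 on the wildtype arrays and 456, 576 and 450.4 on the Rb null arrays. Of the 2 other probe sets of Stat3, 1 was called lower and 1 had the opposite sign. Lif, a ligand of gp130, rose by 0.66 ± 0.17, after being lower without cisplatin (-1.34 ± 0.17). Il6 itself was at 0.11 and not called. Csf2 and Il15 were too weak over the 12 arrays to be tested, with means of 173 and 49.4 in treated Rb null and 13.1 and 108 in treated wildtype cells. In the TNF receptor family 4 of 13 were higher, among them Cd40 (1.00 ± 0.17) and osteoprotegerin (Tnfrsf11b, 0.95 ± 0.1), and the TNF receptor Tnfrsf1b was called lower (-0.81 ± 0.15). Of 17 NF-kB genes 2 were higher (11.8%, near the share over all genes) and none lower.

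Collagens were the largest group of matrix genes that fell. Of 24 tested collagen genes 15 were lower (62.5%, against 13.3% of all genes) and 3 higher, with a median of -0.75. Without cisplatin 2 were lower and 5 higher, and the median was -0.16. The fibrillar collagens give tissue its tensile strength. Col3a1 gave 4688, 5205 and 5415 on the wildtype arrays and 1387, 1906 and 1571 on the Rb null arrays, a log2 difference of -1.66 ± 0.095. Both chains of collagen I fell, with 4340.4, 4914 and 5313 on the wildtype arrays and 2776, 2536 and 2661 on the Rb null arrays for Col1a1 and a log2 difference of -0.76 ± 0.052 for Col1a2. The 3 collagen V chains fell, with log2 differences of -0.91 ± 0.085 (Col5a1), -0.97 ± 0.046 (Col5a2) and -0.74 ± 0.077 (Col5a3), and Col11a1, of the related collagen XI, gave 518, 571 and 527 on the wildtype arrays and 153, 139 and 139 on the Rb null arrays.

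The network-forming chains of the basement membrane, Col4a1 and Col4a2, were called lower at -1.06 ± 0.054 and -0.74 ± 0.084. For the beaded filament chains of collagen VI the genotype difference had the opposite sign without cisplatin. Col6a3 gave 1265, 1508 and 1418 on the wildtype arrays and 485, 585 and 489 on the Rb null arrays after cisplatin, whereas the untreated means were 1438 ± 175 (SD, n = 3) in wildtype and 3488 ± 114 in Rb null cells. Col6a1 and Col6a2 went from 0.82 ± 0.06 and 0.72 ± 0.074 without cisplatin to -0.71 ± 0.06 and -1.28 ± 0.074 with it, and the difference between the effects passed the test for all 3 chains. The collagens that rose were Col2a1, the cartilage collagen, with 503, 578 and 449 on the Rb null arrays and 79.7, 69.7 and 21.7 on the wildtype arrays, Col16a1 (1.17 ± 0.094) and Col9a1 (0.65 ± 0.21, a call lost without Rb null array a or c, without wildtype array c and with the larger pseudocount). Enzymes that process collagen were mostly not called, with 1 of 17 higher and 2 lower, and the collagen chaperone Serpinh1 was at -0.14.

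Matrix genes other than collagens fell in part. Of 7 small leucine-rich proteoglycans Lum, Dcn and Prelp fell and none rose. Dcn, decorin, gave 670.4, 821 and 794 on the wildtype arrays and 222, 271 and 268 on the Rb null arrays. Of 30 elastic fibre and matricellular genes 8 were lower and 2 higher. The thrombospondin Thbs2 gave 1844, 1899.7 and 1835 on the wildtype arrays and 688, 746 and 733 on the Rb null arrays, Emilin1, an elastic fibre protein, was called lower at -1.37 ± 0.12, and Mfap5, of the microfibrils, at -0.94 ± 0.074. Efemp1, fibulin 3, rose, with 319, 160.3 and 265 on the Rb null arrays and 72.8, 66.4 and 71.2 on the wildtype arrays. Fibronectin (Fn1) was at -0.021 ± 0.061, elastin (Eln) at 0.12 ± 0.17 and versican (Vcan) at 0.50 ± 0.081, and none was called.

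Among 28 matrix proteases and inhibitors 8 were lower and 2 higher. Timp3, an inhibitor bound to the matrix, gave 2121, 2506 and 2058 on the wildtype arrays and 762, 944 and 913 on the Rb null arrays. Ctsk, cathepsin K, fell by 1.24 ± 0.18, Mmp3, stromelysin 1, by 1.05 ± 0.12 and the aggrecanase Adamts5 by 0.95 ± 0.1 on the log2 scale. Plau, urokinase, rose by 0.93 ± 0.16 and Mmp11, stromelysin 3, by 0.83 ± 0.13. Mmp3 had been higher in Rb null cells without cisplatin (1.27 ± 0.12).

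Markers of fibroblasts were lower in 10 of 15 cases and higher in none (median -0.86, and -0.097 without cisplatin). Vimentin (Vim), the intermediate filament of mesenchymal cells, was present on every array, with 16549, 16092 and 17117 on the Rb null arrays and 16312, 16423 and 16639 on the wildtype arrays. The PDGF receptors, through which fibroblasts receive their main growth signal, both fell, with 510.1, 462 and 505 on the wildtype arrays and 134, 112 and 146 on the Rb null arrays for Pdgfrb and 328, 351 and 325 on the wildtype arrays and 112, 156 and 158 on the Rb null arrays for Pdgfra. The mesenchymal factors Prrx1 and Twist1 fell, with 1118, 1234 and 1127 on the wildtype arrays and 490.4, 488 and 452 on the Rb null arrays for Prrx1 and a log2 difference of -1.17 ± 0.11 for Twist1, and the collagen receptor Ddr2 gave 466, 515 and 472 on the wildtype arrays and 198, 199 and 179.7 on the Rb null arrays. Vim (0.011 ± 0.053), Fn1 (-0.021 ± 0.061) and the lysyl oxidase Lox (-0.15 ± 0.063) were not called. The summed signal of the 15 markers was 52798 to 53122 on treated Rb null arrays, 67137 to 69442 on treated wildtype arrays and 83172 to 90389 on the 6 untreated arrays. In such bulk RNA fewer cells of a type and less RNA per cell cannot be told apart.

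Markers of macrophages and other leukocytes were lower in 17 of 25 cases and higher in none (median -1.05, 68.0% against 13.3% of all genes). The complement C1q chains, made chiefly by macrophages, fell together, with 636, 579 and 529.9 on the wildtype arrays and 74.2, 113 and 126 on the Rb null arrays for C1qa and log2 differences of -1.43 ± 0.091 for C1qb and -1.52 ± 0.13 for C1qc. Ctss, cathepsin S of antigen-presenting cells, gave 1102, 1137 and 879.9 on the wildtype arrays and 157, 192 and 238 on the Rb null arrays. Lyz2, lysozyme, gave 3884, 4359 and 4279 on the wildtype arrays and 1058, 1125 and 1079 on the Rb null arrays. Adgre1, which encodes the macrophage antigen F4/80, gave 294, 309 and 216 on the wildtype arrays and 139.9, 114 and 122 on the Rb null arrays, and Ptprc, which encodes CD45 of all leukocytes, gave 112, 139 and 95.4 on the wildtype arrays and 65.2, 45.4 and 55.1 on the Rb null arrays. The receptor Csf1r, on which macrophages depend, gave 1718, 1619 and 1727 on the Rb null arrays and 1605, 1469 and 1507 on the wildtype arrays, a log2 difference of 0.14 ± 0.069, and Cd68 (-0.40 ± 0.1) and Cd14 (0.13 ± 0.081) were likewise not called.

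The summed signal of the 30 macrophage markers on the array was 9162 to 9442 on treated Rb null and 19634 to 20472 on treated wildtype arrays. Untreated Rb null arrays gave 13397 to 13889.7 and untreated wildtype arrays 9979.8 to 10602, so the order of the genotypes was reversed there. For all 17 markers that fell the difference between the genotype effects passed the test. These markers were chosen by their fall after cisplatin, which is part of that test, so the choice favours this outcome. Among the 5 markers too weak to be tested was Itgam, which encodes CD11b, with 8, 44.3 and 11.5 on the Rb null and 49, 43.4 and 55.1 on the wildtype arrays. The files hold no detection call that would tell whether it was above background. The part of leukocyte RNA in the differences of Ppbp, Pf4, Ccl9, Apoe and the lysosomal genes was not tested.

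**Figure D5:**
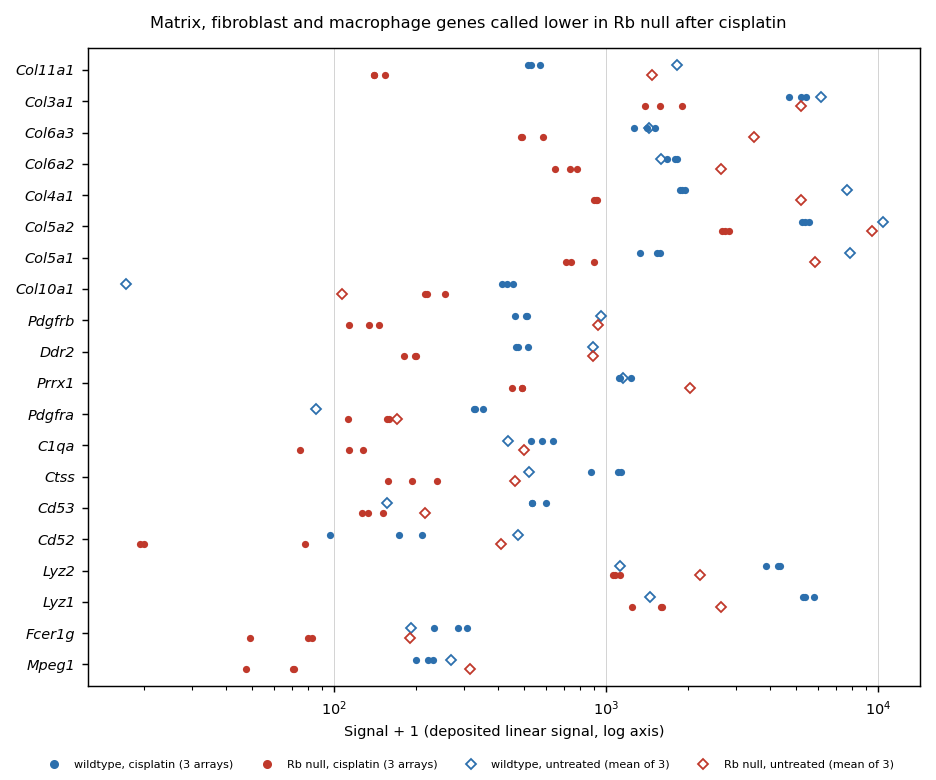
Signal (plus 1, log axis) of matrix, fibroblast and macrophage genes called lower in Rb null cells after cisplatin, with 1 dot per treated array (wildtype blue, Rb null red) and open diamonds for the means of 3 untreated arrays. Red dots lie to the left of blue dots for every gene, and for Col6a3, Col6a2, Prrx1, Lyz2 and Lyz1 the untreated Rb null diamond lies to the right of the untreated wildtype one.

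Receptors and ligands of growth factors were lower in 10 of 39 cases (25.6%, against 13.3% of all genes) and higher in 3 (7.69%, against 9.67%), with a median of -0.25. Pdgfc, a PDGF ligand, gave 1239, 1364 and 1339.7 on the wildtype arrays and 302, 286 and 194 on the Rb null arrays, so a ligand and both receptors of that pathway fell. Fgf7, keratinocyte growth factor, was called lower at -1.08 ± 0.076 after having been higher without cisplatin (1.48 ± 0.076). Egfr (-0.44), Fgfr1 (-0.33) and Met (0.30) were not called. Fgf13, an intracellular member of the FGF family, rose by 1.12 ± 0.17.

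The insulin-like growth factor axis was lower in 7 of 15 cases, Igf2 being the 1 member that rose. The receptor Igf1r gave 249.5, 215 and 211 on the wildtype arrays and 78.2, 60 and 67.8 on the Rb null arrays and its adaptor Irs1 gave 1544, 1553 and 1449 on the wildtype arrays and 518, 622 and 546 on the Rb null arrays. Igfbp4, a binding protein that sequesters the ligands, gave 3526, 4076 and 4524 on the wildtype arrays and 801, 639 and 734 on the Rb null arrays, and Pappa, the protease that cleaves it, fell by 1.94 ± 0.11 on the log2 scale. The ligand Igf1 was called lower at -1.11 ± 0.11 and the growth hormone receptor Ghr at -1.36 ± 0.1. All 4 other probe sets of Igfbp4 were called in the same direction. Among 16 imprinted genes 4 were higher and 1 lower. Beside Igf2 and Cdkn1c these were Mest (0.96 ± 0.078) and Impact (0.89 ± 0.083), both of which had been lower without cisplatin (-1.35 and -0.79), and Dcn fell.

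TGF-beta and BMP genes were called higher in 2 and lower in 5 of 29 cases, near the shares over all genes. The type I receptor Tgfbr1 rose, with 1539, 1698 and 1696 on the Rb null arrays and 916, 832 and 887 on the wildtype arrays, and the type II receptor Tgfbr2 fell, with 2230.3, 2245 and 2201 on the wildtype arrays and 1060.1, 1266 and 1202 on the Rb null arrays. The inhibitory Smad6 fell by 1.45 ± 0.11 and the endothelial type I receptor Acvrl1 by 1.53 ± 0.21 on the log2 scale. Wnt genes had 2 of 23 higher and 3 lower, with the receptors Fzd5 (1.43 ± 0.15) and Fzd2 (-1.33 ± 0.13) going apart. In the Notch and Hedgehog list Notch3 and its ligand Jag1 rose, by 1.11 ± 0.11 and 0.96 ± 0.082, and Notch2 (-0.78 ± 0.097) and the Hedgehog components Ptch1 (-1.01 ± 0.13), Sufu (-1.22 ± 0.11) and Gas1 (-1.17 ± 0.24) were called lower.

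HOX genes, which record the position of a cell along the body and limb axes, were higher in 4 of 18 cases and lower in 4. Those higher were Hoxb6, with 470.2, 389.5 and 436 on the Rb null arrays and 213, 165 and 130.5 on the wildtype arrays, Hoxc4 (1.29 ± 0.36), Hoxc5 (0.96 ± 0.17) and Hoxa5 (0.93 ± 0.11). Those lower were Hoxa10, with 518, 467 and 334 on the wildtype arrays and 94.4, 105 and 108 on the Rb null arrays, Hoxa11 (-0.75 ± 0.11), Hoxd8 (-0.78 ± 0.17) and Hoxd9 (-0.86 ± 0.18). The higher members have paralogue numbers from 4 to 6 and the lower ones from 8 to 11, a split noticed after the values were seen. It rests on the called members alone, as 10 of the 18 were not called. Of members too weak to be tested, Hoxc13 went against it, with 204.5, 214.5 and 186.3 on the Rb null arrays and 55.8, 64.5 and 70.3 on the wildtype arrays. Hoxd13 went with it, with 42.4, 19.3 and 53.8 on the Rb null arrays and 187.4, 198.5 and 207.3 on the wildtype arrays. Without cisplatin none was higher and 2 were lower, and the difference between the effects was positive and called for 8 members and negative for 2.

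Contractile and adhesion genes were mostly not called, with 1 of 29 higher and 6 lower. The integrin Itgb5 gave 2103, 2220.3 and 2019 on the wildtype arrays and 729.6, 832 and 789.5 on the Rb null arrays, the integrin Itga5 was called lower at -0.89 ± 0.069 and the focal adhesion protein vinculin (Vcl) at -0.77 ± 0.064. Cnn1, calponin, rose, with 1982, 1766 and 1819.7 on the Rb null arrays and 784, 774 and 772 on the wildtype arrays, while Acta2 (0.19) and Tagln (0.22) were not called.

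Transcripts of nuclear RNA processing were higher in 10 of 34 cases and lower in 1 (median 0.26). The long non-coding RNAs of nuclear bodies, Neat1 and Malat1, both rose. Neat1 gave 3508, 3275 and 3528 on the Rb null arrays and 1021, 1079.9 and 1127 on the wildtype arrays, and Malat1 gave 2560.5, 4240.5 and 3776 on the Rb null arrays and 1552, 1026 and 1466 on the wildtype arrays, with all 4 other probe sets called higher. Both had been at or below 0 without cisplatin (-0.30 and -0.85). The splicing factors Hnrnpa1, Srsf10 and Hnrnph1 rose by 1.02 ± 0.15, 0.87 ± 0.088 and 0.76 ± 0.078, but none of their 1, 3 and 1 other probe sets was called higher. The kinase Clk1, which phosphorylates SR proteins, rose by 0.81 ± 0.093.

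Ribosome biogenesis had 5 of 27 members higher and 1 lower, with Gnl3, nucleostemin, at 3024, 2974 and 2964 on the Rb null arrays and 1358, 1411 and 1161 on the wildtype arrays. Of 36 cytosolic ribosomal proteins none was higher and 2 were lower, and the others lay between -0.37 (Rplp0) and 0.37 (Rpl12). Of 57 respiratory chain subunits 1 was higher (Ndufb6, 0.80 ± 0.069) and 2 were lower, with Ndufs5 at 1091, 1230.1 and 1252 on the wildtype arrays and 348, 338 and 377 on the Rb null arrays. None of 31 proteasome subunits was called, with log2 differences from -0.49 (Psmd8) to 0.27 (Psmd7). Aminoacyl-tRNA synthetases had 1 of 19 lower, Eprs, at -0.72 ± 0.078.

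Lysosomal genes were lower in 10 of 35 cases (28.6%) and higher in 3. Glb1, the enzyme of the senescence-associated beta-galactosidase stain, gave 343, 338 and 295 on the wildtype arrays and 130.1, 105 and 122 on the Rb null arrays, and Gla, alpha-galactosidase, was called lower at -1.31 ± 0.11. Ctsf, cathepsin F, and Man2b1, alpha-mannosidase, rose, with 1111, 1011 and 1006 on the Rb null arrays and 357, 365 and 339 on the wildtype arrays for Ctsf and a log2 difference of 1.27 ± 0.075 for Man2b1. Lamp1 (-0.0063) and Ctsd (0.042) were not called.

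In energy metabolism 5 of 24 glycolysis and hypoxia genes were lower (20.8%, against 13.3% of all genes) and 2 higher (8.33%, against 9.67%). Hexokinase 1 (Hk1) gave 1454, 1482 and 1220.3 on the wildtype arrays and 650.2, 453 and 560.2 on the Rb null arrays, the glucose transporter Slc2a3 was called lower at -1.49 ± 0.2 and the phosphofructokinase Pfkp at -1.19 ± 0.1. Egln3, an oxygen-sensing hydroxylase, rose, with 655, 646 and 658 on the Rb null arrays and 183, 235 and 211 on the wildtype arrays. Slc2a3 and Pfkp were also lower without cisplatin (-2.06 and -0.96). Among lipid genes Apoe, the lipid carrier that macrophages also make, fell, with 474, 316 and 385 on the wildtype arrays and 60.9, 61.1 and 46 on the Rb null arrays, Angptl4, an inhibitor of lipoprotein lipase, fell by 1.77 ± 0.13 on the log2 scale, and Fabp5, a fatty acid carrier, rose by 1.12 ± 0.089. Of 26 genes of cholesterol and fatty acid synthesis 2 were higher and 1 lower, with Idi1, an isomerase of the mevalonate pathway, at 1271, 1269.7 and 1303 on the Rb null arrays and 468, 437 and 478 on the wildtype arrays.

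Of 12 clock and glucocorticoid-responsive genes 4 were higher (33.3%, against 9.67% of all genes) and 1 lower (8.33%, against 13.3%). Those higher are among the targets of the clock factors CLOCK and BMAL1, but not all such targets rose. Nr1d1, the repressor REV-ERB alpha, gave 789, 820 and 853 on the Rb null arrays and 300.1, 318 and 263 on the wildtype arrays, and Dbp, Nr1d2 and Tef rose by 1.16 ± 0.16, 0.94 ± 0.1 and 0.86 ± 0.097. The clock genes Clock (-0.22), Arntl (-0.36) and Per1 (0.086) were not called. Per2, Cry1 and Cry2 were too weak to be tested. Their means were 25.4, 100.7 and 71.2 in treated Rb null and 36.33, 123.6 and 132.7 in treated wildtype cells. Also untested, Per3, Hlf, Bhlhe41 and Npas2 had the higher mean in treated Rb null cells.

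Against the untreated cells, 250 of the 768 genes that were higher after cisplatin were also called higher without it, 481 were not called there and 37 were called lower. Of the 1059 lower genes 123 were also lower without cisplatin, 889 were not called and 47 were called higher. The difference between the genotype effects itself passed the test in the same direction for 363 of the higher and 672 of the lower genes. As that test contains the difference by which these genes were called, the choice of genes favours such counts.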

How the data were processed

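RNA of 4 groups of MEFs was measured on 12 Affymetrix arrays with 22690 probe sets, and the 6 arrays of cisplatin-treated cells were compared. The deposited values are linear signal intensity per probe set, made with MAS5 per the submitters' processing notes; its version, scaling and detection calls are not given in the sources used here. Groups came from the labels. A pseudocount of 10.4 (the 10th percentile of the deposited values) was added before log2 was taken, so differences of weak genes are understated. Control probe sets (64) and the 40% of the others with the lowest mean over all 12 arrays were left out, and 13575 were tested. Genes that were high in a single group could thus be left out.

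The platform annotation gave 1 symbol for 20380 probe sets, several for 691 and none for 1555. Per gene the probe set with the highest mean was used, those with cross-hybridization suffixes only where no other existed. All 12 arrays entered a limma 3.58.1 fit of group means (R 4.3.3; lmFit, eBayes with trend), with 8 residual and 6.09 prior degrees of freedom, so the spread is pooled over the 4 groups. The tests are two-sided, and precision is limited by the number of arrays. The fit was tested on simulated data. Arrays a to c were not paired by letter: the deviations of same-letter arrays correlated at r = -0.021, 0.084 and -0.00086.

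The genes compared and the 58 gene and 12 marker lists were chosen with earlier results of these data known. Genes were named by rule: the 12 largest rises and falls among called genes without overlap, up to 6 called members of each list (all where 8 or fewer were called), any measured member of a family described gene by gene, Rb1, and genes in runs of called neighbours. The lists hold 1590 genes on the array, of which 346 were too weak to be tested. Gene order came from a RefSeq table and promoters from a RefSeq table of build GRCm38.p6. Other pseudocounts, filters, normalizations, fold minimums, sets of arrays and a replicate block were tried.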

Additional observations from a re-analysis of the deposited data

Results flagged for a closer look

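The test of whether the genotype difference itself differed between treated and untreated cells called 1885 of 7945 genes. Untreated wildtype arrays enter that test and stand apart in sex-linked transcripts, from treated wildtype arrays too. Cisplatin and the origin of the cells therefore cannot be told apart in it. The 24 genes with the largest change after cisplatin all passed it, which their choice favours because the test contains that change. The values that follow are the genotype difference with cisplatin minus that without, on the log2 scale.

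Among genes that rose, the value was 4.18 for Fxyd6, 3.76 for Gbp2b, 3.65 for Ifi202b and 3.09 for Igf2. Fxyd6 and Gbp2b had been called lower in untreated Rb null cells, so they changed sign. It was 2.87 for Tmem87a, 2.69 for Gbp3, 2.46 for Tex15 and 2.04 for Ccl5. For Mbd4 (1.97), Col2a1 (1.81), Sytl1 (1.69) and Ptprv (1.32) it was smaller, and these 4 genes and Ifi202b were called higher without cisplatin too.

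Among genes that fell, it was -4.94 for Rpgrip1, -4.79 for Tmem45a, -4.63 for Ppbp and -4.03 for Sod3. It was -3.78 for Lum, -3.19 for Igfbp4, -2.84 for Ccl9 and -2.5 for Tmem267. Ppbp and Igfbp4 had been called higher in untreated Rb null cells. For Pdpn (-2.23), Ano10 (-1.98), Apoe (-1.82) and Gzmd (-1.44) it was smaller, and Pdpn, Apoe and Gzmd were called lower without cisplatin as well.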

How the results depend on the processing

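A set of 387 called genes, made of the largest changes, the runs of neighbours and the leading members of each list, was followed through the alternatives. None of their calls changed direction. Of these genes 322 kept their call in every alternative that kept the 1.5-fold minimum, and 65 lost it in at least 1. Other family members named above are not in these counts. Losses were most frequent with the larger pseudocount (35 genes), after quantile normalization (26) and after median centring (25), and each array left out cost 12 to 22 calls. With the lowest 60% of probe sets left out, 1906 were called (808 higher, 1098 lower), which included 688 lower genes and 7 lower macrophage markers. This setting tests fewer probe sets. With a 2-fold minimum 928 were called, 371 higher and 557 lower, or 235 higher and 339 lower genes. The members called were then 6 for origin licensing, 4 for mitotic kinases, 2 for the kinetochore, 3 for chromatin assembly, 3 for splicing factors, 5 for collagens and 6 for fibroblast markers. With no fold minimum 6968 were called (3063 higher, 3905 lower), or 1822 higher and 2402 lower genes, with 20 mitotic and 21 splicing members. Centring on the median moved the median of all probe sets from -0.043 to 0.024. A replicate block by array letter, on the 6 treated arrays, gave 3007 called probe sets (1257 higher, 1750 lower) against 3003 without it. As the letters do not pair the arrays, this is only a check. Without detection calls, no depth or background limit could be set for weak genes.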

Other observations

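Some called genes lie side by side. Among tested genes in their order on the chromosomes there were 30 runs of 3 or more neighbours called in the same direction, and no test of such runs was made. The 3 C1q chains on chromosome 4, C1qb (-1.43), C1qc (-1.52) and C1qa (-2.39), formed such a run of lower genes, and the guanylate-binding genes on chromosome 3 one of higher genes. On chromosome 14 the granzymes Gzmd (-2.81) and Gzme (-1.96) and the mast cell protease Mcpt8 (-1.60) were lower next to Nfatc4 (-1.49). The probe set of Gzme carries a cross-hybridization suffix. The neighbours on chromosome 2 Chst1, Cd82, Ext2, Hsd17b12 and Ttc17 were lower, with Chst1 at -0.79, Cd82 at -0.79 and Ext2, which builds heparan sulphate chains, at -0.85. The call of Ttc17 held in only 8 of 15 alternatives. On chromosome 10 Col6a2 (-1.28) and Col6a1 (-0.71) are neighbours. By chromosome, the share of tested genes called lower ran from 9.33% on chromosome 11 to 17.3% on chromosome 1, and the share called higher from 5.79% on chromosome 18 to 12.0% on chromosome 2.

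Markers of cell types other than fibroblasts and leukocytes were mostly too weak to test. Of 19 epithelial markers on the array 7 were tested, 3 were higher and 1 was lower. The keratins differed, with Krt18 lower, at 466, 434 and 499 on the wildtype arrays and 213, 210.4 and 207 on the Rb null arrays, and Krt19 higher (0.67 ± 0.16). The others higher were Perp and Lce1f (0.62 ± 0.11, lost without Rb null array b or wildtype array b). Among 6 tested chondrocyte and bone markers 2 were higher and 2 lower. Col2a1 and Col9a1 rose, while Col10a1, the collagen of hypertrophic cartilage, fell, with 453, 414 and 431 on the wildtype arrays and 255, 218 and 216 on the Rb null arrays, and so did Mgp, an inhibitor of calcification (-0.71 ± 0.08). Of 8 tested neural and glial markers 2 were higher and 1 lower. Mbp, myelin basic protein, was called lower (-1.19 ± 0.31) and the neuronal tubulin Tubb3 higher (0.69 ± 0.15, a call lost with the larger pseudocount), as was nestin (Nes, 0.60 ± 0.13, lost in 5 alternatives). Of 7 tested muscle markers Des, desmin, was called lower (-0.81 ± 0.24, lost without Rb null array a or wildtype array c), with another probe set of the opposite sign.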
